A study of Mus musculus with 6 samples.

Results

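Folding of secreted proteins in the endoplasmic reticulum (ER) was examined here through 10 genes whose products work in its lumen or at its membrane: Hspa5, Hsp90b1, Canx, Calr, Pdia3, Pdia4, Pdia6, Dnajb11, Hyou1 and Manf. They were chosen by gene symbol for their shared role, and all 10 were found once each among the 22609 gene symbols of the deposited count table. RNA had been sequenced from laser-cut tissue of CD-1 mice at postnatal day 7, taken from the mandibular condyle in its articular zone or its mature zone, and the question was which genes differ between the superficial layer, where progenitor cells are thought to lie, and the cartilage under it. The 5 libraries used were 3 of the articular zone (replicates 2, 3 and 4) and 2 of the mature zone (replicates 2 and 3). No genetic change or treatment is named for any of them. A sixth sample, replicate 4 of the mature zone, is labelled as having mapped badly and was not analysed here. Each library is a pool of captured sections called an independent biological replicate, zones were told apart by the look of their cells, and the sources used here do not give the number or sex of the animals. In such bulk RNA, fewer cells of a type and less RNA per cell cannot be told apart.

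Proteins bound for the extracellular matrix enter the ER unfolded and leave it only once folded and, where needed, joined by disulfide bonds. BiP, the Hsp70 protein of the ER, binds exposed hydrophobic stretches in cycles of ATP use that are set by J-domain cochaperones and nucleotide exchange factors. Calnexin and calreticulin hold glycoproteins by their sugar, and disulfide isomerases make and reshuffle cysteine bonds. Chondrocytes and fibroblasts secrete collagens and proteoglycans in bulk, and the unfolded protein response raises many of these genes together when unfolded proteins accumulate in the ER. Cells of many kinds respond in this way through the ER stress response element (ERSE), a promoter sequence bound by the factors NF-Y, ATF6 and XBP1.

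The 10 genes are known as common targets of that response, so the element is shown first where their promoters hold it. RefSeq promoters of build GRCm38.p6, which is mm10, were held for 8 of the 10 genes, each from 250 bases before to 50 bases after the start of the gene; Hyou1 and Manf had no entry. The ERSE was searched on both strands as CCAAT, 9 bases of any kind and CCACG. An exact match was found in the promoters of 5 of the 8 genes, Hspa5, Hsp90b1, Canx, Calr and Pdia6, and in 0.119% of all 32851 promoters of the same length. The 10 genes were already known as targets of the response, so this excess was likely from the outset and is not a finding of these data. The match lay 65 to 47 bases upstream of the start in Hspa5 (chr2:34772025-34772043), 145 to 127 in Canx (chr11:50325800-50325818), 162 to 144 in Calr (chr8:84847075-84847093) and 98 to 80 in Pdia6 (chr12:17266491-17266509). Hsp90b1 had 2 matches, 212 to 194 bases upstream (chr10:86705638-86705656) and 107 to 89 bases upstream (chr10:86705533-86705551). Each is printed below 5′ to 3′ on the strand of the gene with 20 bases on either side, and capitals mark the fixed letters of the element, which read CGTGG and then ATTGG where the element lies on the other strand.
Hspa5: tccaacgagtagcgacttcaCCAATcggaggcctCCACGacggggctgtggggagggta
Hsp90b1 distal: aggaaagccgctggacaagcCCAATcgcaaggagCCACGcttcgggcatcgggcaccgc
Hsp90b1 proximal: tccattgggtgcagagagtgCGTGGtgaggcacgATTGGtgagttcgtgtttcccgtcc
Canx: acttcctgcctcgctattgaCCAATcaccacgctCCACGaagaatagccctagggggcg
Calr: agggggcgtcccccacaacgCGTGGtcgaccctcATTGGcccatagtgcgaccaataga
Pdia6: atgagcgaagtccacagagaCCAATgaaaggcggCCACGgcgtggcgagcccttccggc
Pdia3 and Pdia4 held no exact match and 1 match each with a single fixed letter changed, a looser form found in 1.5% of all promoters. Dnajb11 held neither, but had 1 match to the related element ERSE-II, searched as ATTGG, 1 base of any kind and CCACG, which occurs in 0.0365% of all promoters. A match is a stretch of letters and does not show that a factor was bound there in these cells.

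The reads behind the 10 genes were many. Libraries held 15449883 to 18884685 counts, and the 10 genes had between 430 and 38887 counts each, so counting error was small beside the spread between libraries. Libraries were scaled by TMM, and levels are given as counts per 1000000 of the scaled library (CPM). The zones were compared with edgeR's quasi-likelihood test over 13119 genes, those that reached 10 counts in 2 or more libraries, and all 10 genes were among them. The threshold for a call was a Benjamini-Hochberg adjusted p under 0.05. A negative log2 fold change means a lower level in the articular zone, and SE is its standard error. Cartilage markers followed the zone labels. All 10 chondrocyte markers had every articular zone library below both mature zone libraries, and 9 of them were called lower. Their summed levels were 2138 to 3932 CPM in the articular zone and 25679 to 42822 CPM in the mature zone. Muscle transcripts marked both replicate 2 libraries. The 7 skeletal muscle markers summed to 933 CPM in articular zone replicate 2 and 807 CPM in mature zone replicate 2, and to between 13.2 and 59.6 CPM in the other 3 libraries; their part in the results was not tested, and the values without both libraries are given below.

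The 10 genes together had a smaller share of the counts in every articular zone library. They took 0.657% (95% exact binomial interval 0.653 to 0.661), 0.748% (0.744 to 0.752) and 0.770% (0.766 to 0.774) of all counts in the articular zone (replicates 2, 3 and 4, the order used throughout), and 1.04% (1.03 to 1.04) and 0.912% (0.908 to 0.917) in the mature zone (replicates 2 and 3); the intervals cover counting error only. These shares use no TMM scaling and did not overlap between the zones. The fitted log2 fold change was below 0 for all 10 genes with counts, with Pdia4 above 0 on the FPKM scale, and its median was -0.63 against 0.07 over all genes tested. Over the genes with a mean of at least 50 CPM that median was -0.17. One gene, Calr, passed the test as lower in the articular zone and none passed as higher. Of all genes tested, 1.85% were called lower and 1.14% higher. Of those with a mean of at least 50 CPM, 7.14% were called in either direction. By CPM, every articular zone library lay below both mature zone libraries for 9 of the 10 genes, a pattern shown by 17.6% of all genes tested and by 32.8% of the 3923 genes with a mean of at least 50 CPM. On the authors' FPKM scale the same held for 6 of the 10 (Hspa5, Hsp90b1, Calr, Dnajb11, Hyou1 and Manf), against 14.3% of the 9609 genes with a mean of at least 1 FPKM, while Canx, Pdia3, Pdia4 and Pdia6 overlapped. By CPM none of the 10 had the articular zone libraries above, as 21.1% of all genes tested did. An unadjusted p under 0.05 was reached by 9 of the 10 and by 20.1% of all genes tested. DESeq2 called 6 of the 10 (Hspa5, Hsp90b1, Canx, Calr, Pdia6 and Hyou1), all lower, in a fit that called 13.8% of all genes and 5.85% as lower. limma-voom called Hspa5, Hsp90b1 and Calr, with 3.13% of all genes called.

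**Figure D1:**
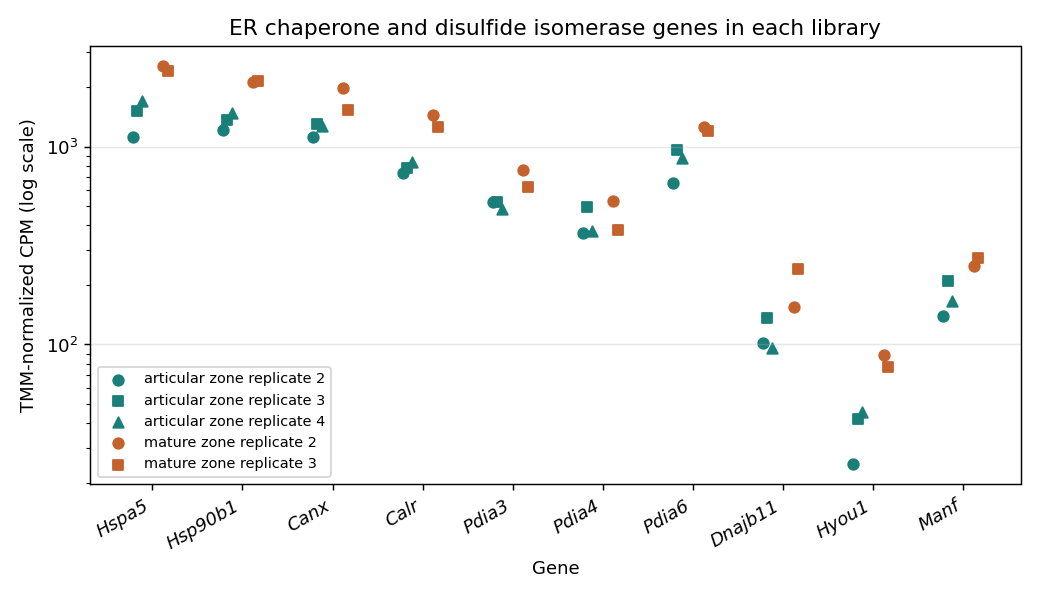
Level of each of the 10 genes in TMM-normalized CPM (vertical log axis), with a point for each library, articular zone in green and mature zone in orange, and a marker shape for each replicate number. For every gene but Pdia4 the 3 articular zone points lie below both mature zone points; Hspa5 spans 1114 to 1696 CPM in the articular zone and 2415 to 2555 CPM in the mature zone.

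Of the BiP cycle, Hspa5 and its partners were all at lower levels in the articular zone libraries, though none passed the test. Hspa5, which encodes BiP (chromosome 2, 34772090 to 34776529), stood at 1114, 1511 and 1696 CPM in the articular zone libraries and at 2555 and 2415 CPM in those of the mature zone. The zones did not overlap, and articular zone replicate 2 was the lowest library. Its log2 fold change was -0.79 (SE 0.20, 95% interval -1.25 to -0.33), and edgeR's quasi-likelihood test gave an adjusted p of 0.0836.
Dnajb11 encodes ERdj3, a J-domain protein that delivers unfolded clients to BiP (chromosome 16, 22857845 to 22879634). It was at 102, 137 and 96.1 CPM in the articular zone and at 154 and 240.4 CPM in the mature zone. The mature zone libraries differed from each other more than the lower one differed from the nearest articular zone library. Its log2 fold change was -0.82 (SE 0.27, adjusted p = 0.142 in edgeR's quasi-likelihood test). Without mature zone replicate 2 it was -1.11, and without mature zone replicate 3 it was -0.47. Each of these fits keeps 1 mature zone library.
Hyou1 encodes GRP170, a large Hsp70-like protein that exchanges the nucleotide of BiP (chromosome 9, 44379490 to 44392369). It was the least abundant of the 10 and had the lowest fitted log2 fold change, at 24.8, 42.1 and 45.5 CPM in the articular zone and 88.2 and 77.1 CPM in the mature zone. The difference was -1.14 on the log2 scale (SE 0.34, 95% interval -1.92 to -0.36), but its error was also the largest of the 10 and the adjusted p was 0.122 in edgeR's quasi-likelihood test.
Manf encodes a small protein of the ER lumen that binds BiP and can also be secreted (chromosome 9, 106888753 to 106891938). Its levels were 139, 209 and 165 CPM in the articular zone and 249 and 272 CPM in the mature zone, with no overlap. For Manf the log2 fold change was -0.61 (SE 0.22, adjusted p = 0.180 in edgeR's quasi-likelihood test). Exons of a gene on the other strand cover 6.74% of the exon length of Manf, and the sources used here do not say whether reads were counted by strand.

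Hsp90b1 encodes GRP94, the Hsp90 protein of the ER lumen, which acts on a limited set of clients that include integrins and insulin-like growth factors (chromosome 10, 86690841 to 86705444). It was at 1219, 1359 and 1473 CPM in the articular zone and at 2107 and 2142 CPM in the mature zone. Both groups were tight and did not overlap. The log2 fold change was -0.65 (SE 0.16, 95% interval -1.01 to -0.29), the smallest error of the 10, and the adjusted p was 0.0723 in edgeR's quasi-likelihood test. Of its exon length, 14.7% is shared with a gene on the other strand and 6.94% with genes on the same strand, so some of its reads could belong to those.

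The lectin chaperones held the only gene that passed. Calr encodes calreticulin, which is soluble in the lumen and also binds calcium (chromosome 8, 84842088 to 84846931). It was at 731, 783 and 832 CPM in the articular zone and at 1436 and 1248 CPM in the mature zone. The zones did not overlap. Calr was 1.72-fold lower in the articular zone (log2 fold change -0.78, SE 0.16, 95% interval -1.15 to -0.41, edgeR quasi-likelihood adjusted p = 0.0455). This call rested on each library: edgeR's adjusted p was 0.131, 0.137 and 0.20 without articular zone replicate 2, 3 or 4 and 0.0678 and 0.0737 without mature zone replicate 2 or 3, and the log2 fold change stayed between -0.88 and -0.67 in these fits.
Canx encodes calnexin, the membrane-bound counterpart of calreticulin (chromosome 11, 50293957 to 50325673). Its levels were 1114, 1294 and 1276 CPM in the articular zone and 1980 and 1523 CPM in the mature zone. The zones did not overlap, but mature zone replicate 3 lay nearer to the articular zone libraries than to mature zone replicate 2. The log2 fold change was -0.51 (SE 0.18, adjusted p = 0.162 in edgeR's quasi-likelihood test), and without mature zone replicate 2 it was -0.31. A difference between Calr and Canx was not tested.

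Among the disulfide isomerases the values ran from lower in the articular zone to not distinguishable. Pdia6 encodes P5, an isomerase that associates with BiP (chromosome 12, 17266589 to 17284785). It was at 651, 955 and 874 CPM in the articular zone and at 1251 and 1202 CPM in the mature zone libraries, which gave -0.57 on the log2 scale (SE 0.20, adjusted p = 0.163 in edgeR's quasi-likelihood test). The zones did not overlap, with articular zone replicate 2 again the lowest library.
Pdia3 encodes ERp57, which works on glycoproteins held by calnexin and calreticulin (chromosome 2, 121413902 to 121438687). It was at 522, 523 and 482 CPM in the articular zone, the tightest of the 10 genes there, and at 757 and 621 CPM in the mature zone. The log2 fold change was -0.44 (SE 0.17, 95% interval -0.83 to -0.04, adjusted p = 0.205 in edgeR's quasi-likelihood test).
Pdia4 encodes ERp72, an isomerase with an additional thioredoxin-like catalytic domain (chromosome 6, 47796141 to 47813512). It was at 367, 495 and 376 CPM in the articular zone and at 528 and 378 CPM in the mature zone, and was the only one of the 10 whose zones overlapped by CPM. The log2 fold change was -0.14 (SE 0.22, adjusted p = 0.815 in edgeR's quasi-likelihood test), and its 95% interval of -0.65 to 0.38 leaves room for a change of either sign. Its sign turned to 0.12 without mature zone replicate 2 and to 0.08 with FPKM in place of counts.

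**Figure D2:**
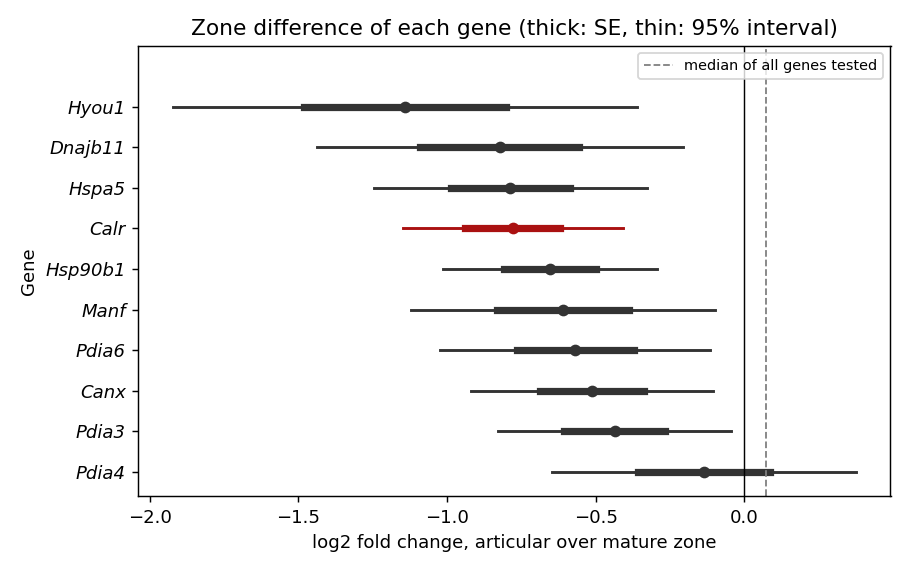
log2 fold change of each of the 10 genes, articular over mature zone, from edgeR, with the SE as a thick line and the 95% interval as a thin line. Calr, in red, passed an adjusted p under 0.05; the values run from -1.14 for Hyou1 to -0.14 for Pdia4, whose interval alone crosses 0 and whose sign turns on the FPKM scale, and the dashed line is the median of 0.07 over all genes tested.

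Set beside the promoter sequences, the 5 genes with an exact ERSE had log2 fold changes of -0.79 (Hspa5), -0.78 (Calr), -0.65 (Hsp90b1), -0.57 (Pdia6) and -0.51 (Canx). Pdia3 and Pdia4, with no exact element, were at -0.44 and -0.14, and Dnajb11, with ERSE-II, was at -0.82. No test was made on so few genes. Of 13 other tested genes with an exact ERSE, none was called in either direction by edgeR, where 3.00% of all genes were, so that calls were too rare to tell these genes from the rest. Among them 4 had an unadjusted p under 0.05 (20.1% of all genes tested), 7 had a log2 fold change below 0 (46.5% of all genes tested), and their median was -0.11. Those 4 were the ER genes Creld2, Dnajc3 and Syvn1, at -0.96, -1.03 and -1.01, and Zfp57, a zinc finger protein gene, at 1.26.

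The order of the 10 genes by level was similar in both zones. Levels of different genes are compared on the authors' FPKM scale, which allows for gene length. The lengths behind it were not checked here, and the order and the ratios below depend on them. Hspa5 (202 to 478 FPKM over the 5 libraries), Hsp90b1 (217 to 384), Calr (215 to 399) and Pdia6 (170 to 330) were the most abundant, and their ranges overlapped. Canx (78.5 to 137), Pdia4 (57.9 to 101) and Pdia3 (67.5 to 96.8) followed, then Manf (38.7 to 66.2) and Dnajb11 (34.9 to 62.9), whose ranges met that of Pdia4, and last Hyou1 (2.64 to 9.24), which stood clear of all others. For every 100 FPKM of Hspa5 there were 10.3 to 17.7 of its cochaperone Dnajb11 and 1.31 to 1.94 of its exchange factor Hyou1.
As a share of the summed FPKM of the 10 genes, which does not depend on how libraries are scaled, Pdia4 made up 6.33%, 7.14% and 5.33% in the articular zone libraries and 4.93% and 3.78% in those of the mature zone. Hyou1 made up 0.24%, 0.32% and 0.37% in the articular zone, against 0.45% in either mature zone library. For both genes the zones did not overlap, in opposite directions, and the same held for their shares of the summed counts. The shares of Canx and Pdia3 were also higher in the articular zone libraries by FPKM, but overlapped by counts. The share of Calr overlapped by FPKM, but by counts it was lower in the articular zone libraries, at 12.2%, 10.7% and 11.4% against 12.9% and 12.3%. Hspa5, Hsp90b1, Pdia6, Dnajb11 and Manf overlapped by both measures. These shares were not tested.

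**Figure D3:**
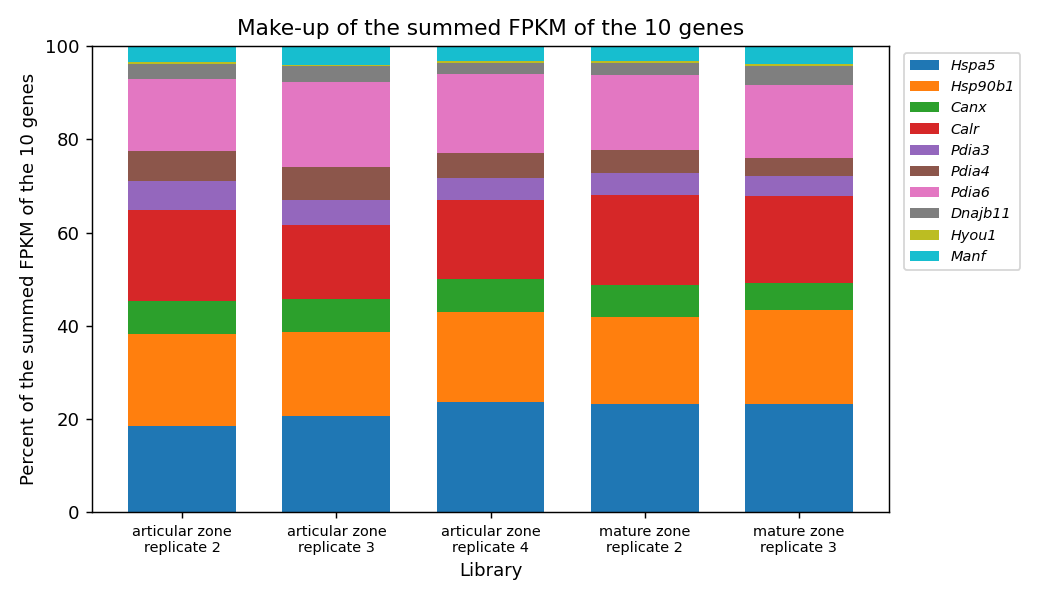
Share of each of the 10 genes in their summed FPKM (vertical axis, percent from 0 to 100), with a bar for each library. Hspa5, Hsp90b1, Calr and Pdia6 fill most of each bar in both zones; the share of Pdia4 is 5.33% to 7.14% in the articular zone and 3.78% to 4.93% in the mature zone.

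Most other genes of ER folding also had log2 fold changes below 0, as 46.5% of all genes tested did, with few calls. Of 20 other thiol oxidoreductases of the ER, 1 was lower and none was higher, and 13 had a log2 fold change below 0 (median -0.42). Every articular zone library lay below both mature zone libraries for 9 of the 20 and above both for 3, Ero1lb, Txndc16 and Prdx4. Over all genes tested these shares were 17.6% and 21.1%. The gene that passed was P4hb, which encodes protein disulfide isomerase, also a subunit of collagen prolyl hydroxylase: it was at 1187, 1526 and 1437 CPM in the articular zone and 2312 and 2575 CPM in the mature zone (-0.82 on the log2 scale, SE 0.17, adjusted p = 0.0456 in edgeR's quasi-likelihood test). Of 3 KDEL receptors, which return escaped chaperones from the Golgi, Kdelr3 was lower, at 367, 485 and 389 against 870 and 905 CPM (-1.10, SE 0.18, adjusted p = 0.0216 in edgeR's quasi-likelihood test). All 3 receptors had the articular zone libraries below the mature zone libraries.
Of 10 sensors and factors of the unfolded protein response, Xbp1, a transcription factor of that response, was lower and none was higher. Of the 10, 8 had a log2 fold change below 0 (46.5% of all genes tested). Every articular zone library lay below both mature zone libraries for 4 (17.6% of all genes tested). Xbp1 was at 125, 140 and 151 CPM in the articular zone and at 280 and 274 CPM in the mature zone libraries (-1.0 on the log2 scale, SE 0.19, adjusted p = 0.0336 in edgeR's quasi-likelihood test). The counts do not tell its spliced, active form from the unspliced form. No gene of these 3 lists was called in edgeR without articular zone replicate 2, 3 or 4 or without mature zone replicate 3, or in any limma fit on FPKM, and P4hb was also lost with upper-quartile scaling. Without mature zone replicate 2, edgeR called 4 oxidoreductases, 2 KDEL receptors and 2 response genes lower and 1 oxidoreductase higher, with 3.48% of all genes called lower in that fit.

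Glycoprotein quality control had no call, though every gene tested lay below 0. None of the 13 tested genes of the calnexin cycle and ER disposal passed in edgeR. Of these, 11 had an unadjusted p under 0.05 there, and DESeq2 called 9 lower. Over all genes, 20.1% had such an unadjusted p and DESeq2 called 5.85% lower. All 13 had a log2 fold change below 0 (median -0.88), as 46.5% of all genes tested did. For 11 of them every articular zone library lay below both mature zone libraries. That pattern was shown by 17.6% of all genes tested and 32.8% of those with a mean of at least 50 CPM. Ganab, the catalytic subunit of glucosidase II, which trims the sugar that calnexin and calreticulin then bind, was lowest in p: it was at 170, 212 and 238 CPM in the articular zone and 427 and 374 CPM in the mature zone (-0.95, SE 0.20, adjusted p = 0.0505 in edgeR's quasi-likelihood test). Sep15, a selenoprotein that partners the glucosyltransferase of the cycle, was at 573, 659 and 636 against 882 and 924 CPM (-0.54, SE 0.16). Of 9 tested BiP cochaperones outside the 10 genes, none passed in edgeR, 3 had an unadjusted p under 0.05 and DESeq2 called 3 lower. Of the 9, 6 had a log2 fold change below 0 (46.5% of all genes tested). Every articular zone library lay below both mature zone libraries for 5 and above both for 1. Over all genes tested these shares were 17.6% and 21.1%. Hspa13, an Hsp70 protein of microsomes, and Sec63, a J-domain protein of the translocon, were at -0.89 (SE 0.28) and -0.33 (SE 0.21) on the log2 scale.

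Chaperones of the cytosol and mitochondria had a median nearer to 0, but many also lay on the lower side. Of 24 tested, none was called by edgeR or DESeq2, 2 had an unadjusted p under 0.05 in edgeR, and their median log2 fold change was -0.34, against -0.63 for the 10 ER genes; the difference was not tested. Of the 24, 19 had a log2 fold change below 0, and 10 had every articular zone library below both mature zone libraries. Over all genes tested these shares were 46.5% and 17.6%, and 20.1% had an unadjusted p under 0.05. Genes with a mean of at least 50 CPM had a median log2 fold change of -0.17. Their summed level was 7294 to 9338 CPM in the articular zone and 8690 to 10497 CPM in the mature zone, with overlap, where the 10 ER genes summed to 5983 to 7316 and 10120 to 11106 CPM without overlap. Hspa8, the constitutive Hsp70 of the cytosol and relative of Hspa5, was at 790, 1182 and 979 CPM in the articular zone and 1066 and 977 CPM in the mature zone (-0.05, SE 0.20). Hsp90ab1, a cytosolic relative of Hsp90b1, was at 1988, 2036 and 1957 CPM and at 2206 and 1475 CPM (0.12, SE 0.20). The zones overlapped for Hspa8 and Hsp90ab1, the most abundant of their list. Another cytosolic relative of Hsp90b1, Hsp90aa1, had no overlap, at 389, 498 and 500 CPM against 659 and 532 CPM (-0.36, SE 0.19). Without mature zone replicate 2, a fit that keeps 1 mature zone library, the median log2 fold change over all genes tested was 0.17. It was -0.44 for the BiP cochaperones, -0.96 for the calnexin cycle genes and -0.18 for the cytosolic and mitochondrial chaperones.

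**Figure D4:**
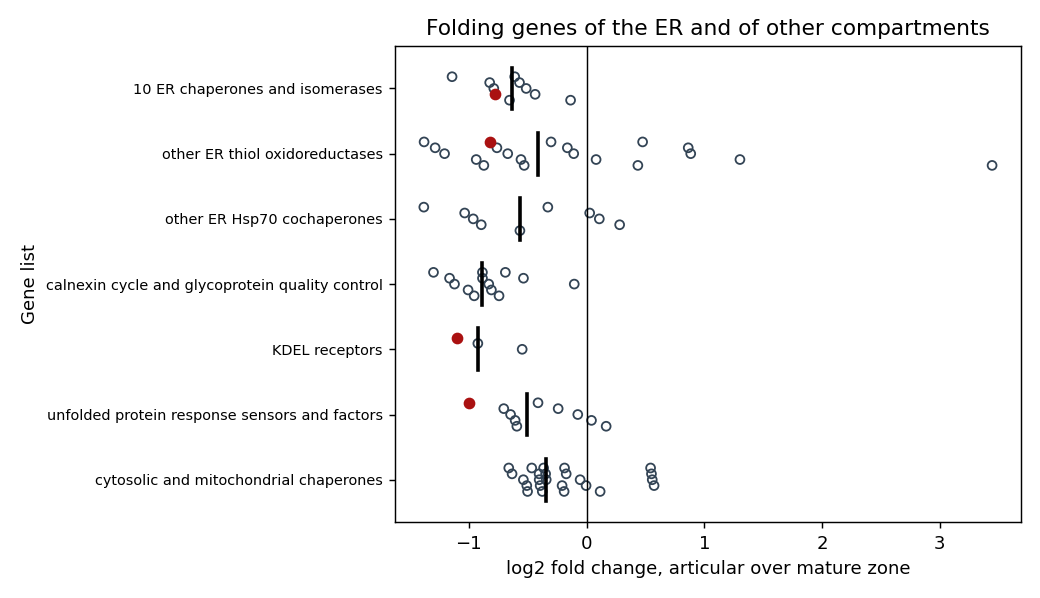
log2 fold change (horizontal axis, articular over mature zone) of every tested gene of the 10 ER genes and of 6 further lists of folding genes, with called genes in red and the median of each list as a black bar. The medians are -0.63 for the 10 genes, -0.88 for glycoprotein quality control and -0.34 for cytosolic and mitochondrial chaperones, and calls are single genes.

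Genes outside the 10 whose levels followed them most closely were sought over the 5 libraries. Genes of the other lists could be chosen too. Each of 6948 other genes with a mean of at least 20 CPM was compared with the mean profile of the 10 by the root mean square distance of their centred log2 CPM. The nearest were Rnh1, a ribonuclease inhibitor, at a distance of 0.029, Ghitm, a protein of the inner mitochondrial membrane, at 0.042, Rnf7, a ring subunit of cullin ubiquitin ligases, at 0.042, Slc31a1, a copper importer, at 0.043, and Capn6, a calpain that lacks protease activity, at 0.046. Their log2 fold changes were -0.62, -0.63, -0.65, -0.72 and -0.64, near those of the 10 genes because they were picked by this profile. None encodes an ER chaperone, and Pdia6, at 0.071, was the nearest of the 10 genes to their own mean. With 6948 candidates, some genes of other roles were likely to lie nearer than any of the 10, so this is no result about them.

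Of the markers of other cell types, Emcn and Dcn were called, both higher in the articular zone. For plasma and B cells, 3 of 6 markers had 0 counts in every library, and the list summed to 0.190 to 6.17 CPM in the articular zone and 0 to 3.85 CPM in the mature zone. Cd79a had at most 3 counts but for 54 in mature zone replicate 3, Cd79b had 46 counts in articular zone replicate 4 and 0 elsewhere, and Igj had 107 in articular zone replicate 2 and 0 elsewhere. Osteoblast markers summed to 167 to 674 CPM in the articular zone and 401 to 683 CPM in the mature zone, with Ibsp at 67.0, 117 and 547 against 576 and 335 CPM. Of the 4 osteoblast markers tested, Ibsp alone had a log2 fold change below 0, and the median was 1.33. Bglap and Bglap2 were above both mature zone libraries in every articular zone library. For this list edgeR called none and DESeq2 called 2 higher, in a fit that called 13.8% of all genes in either direction. Myeloid and osteoclast markers summed to 385 to 688 and 206 to 418 CPM, and endothelial markers to 10.6 to 109 and 0.143 to 17.5 CPM, with Emcn at 0 counts in both mature zone libraries (adjusted p = 0.0365 in edgeR's quasi-likelihood test). All 6 myeloid and osteoclast markers tested and all 5 endothelial markers had log2 fold changes above 0, with medians of 1.21 and 3.13. Alas2, an enzyme of heme synthesis in erythroid cells, was at 2.09 to 19.8 CPM in the articular zone and 4.56 to 6.70 CPM in the mature zone. The 7 markers of the articular and fibrous layer summed to 34547 to 44330 and 34202 to 39297 CPM, with overlap, and Dcn was higher in the articular zone (1.14, SE 0.17). Of the 7, 2 had a log2 fold change below 0 (46.5% of all genes tested), and the median was 0.59. Every articular zone library lay above both mature zone libraries for 4 (21.1% of all genes tested). Neither Dcn nor Emcn was called without articular zone replicate 2, 3 or 4, without mature zone replicate 3 or on log2(FPKM + 0.1). Gapdh, the reference gene of the study's PCR, was itself lower in the articular zone, with a mean of 376 CPM there and 818 CPM in the mature zone (adjusted p = 0.0392 in edgeR's quasi-likelihood test). The part of these marker levels, those of chondrocytes included, in the levels of the 10 genes was not tested.
Without both replicate 2 libraries, the ones rich in muscle transcripts, the median log2 fold change of the 10 genes was -0.56 and 9 of them were below 0. In this fit, which keeps 1 mature zone library, Dnajb11 was at -1.04, Calr at -0.62 and Pdia4 at 0.21.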

How the data were processed

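The authors trimmed single-end poly(A) reads with Trimmomatic 0.32 and mapped them to mouse mm10 with SHRiMP. For the counting tool and strand setting: not given in the sources used here. Raw, unnormalized read counts for 22609 gene symbols were deposited. FPKM, which the authors estimated for each gene per length and mapped fragments, covers 22462 symbols, with 0.1 as the lowest value. The deposited table of the authors' own DESeq comparison (means, fold changes and p-values) was not used.

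Counts of 5 libraries, 15449883 to 18884685 in total, went into edgeR 4.0.16 under R 4.3.3 (TMM, estimateDisp, robust glmQLFit, glmQLFTest, zone alone in the design, 3 residual degrees of freedom), after dropping genes that did not reach 10 counts in 2 libraries. SE and 95% intervals come from the unshrunken coefficient and its F statistic. The labels call the libraries independent biological replicates without saying which animals were pooled, so p-values measure only the spread between these libraries. The test was run on simulated counts as a check of the code. The changes put in were larger than those of most of the 10 genes, so the check does not cover changes of their size. The 10 genes and all lists were chosen with earlier results of these data known, and the promoter motifs after the values were seen. Creld2, Dnajc3, Syvn1, Zfp57, Igj, Ero1lb, Txndc16, Prdx4, Hsp90aa1, Bglap and Bglap2 fall outside the naming rule and were named after their values were seen. By that rule, named are the 10 genes, Gapdh, the 5 genes nearest in profile and, of each list, the called genes of lowest p, at most 4, or without a call the 2 of highest mean CPM. Of the chondrocyte list these were Hapln1, Comp, Acan and Col9a1 (log2 fold changes -3.31, -5.97, -1.81 and -4.16); of the muscle list Myh8 and Acta1 (-0.40 and -0.25), of the erythroid list Alas2 (0.55), of the osteoblast list Ibsp and Sp7 (-0.90 and 0.14), and of the myeloid list Ctsk and Lyz2 (0.64 and 1.79); none of the muscle, erythroid, osteoblast and myeloid genes passed. One further gene of the marker lists is not reported here. For a zone with 0 counts the fold entering a list's median was bounded against 3 counts over the zone. Alternatives were RLE and upper-quartile scaling, other count filters, limma-voom with limma 3.58.1, DESeq2 1.42.0, limma on log2(FPKM + 1), filtered at a mean FPKM of 1 or unfiltered, the same with a pseudocount of 0.1, a threshold of an adjusted p under 0.01, the replicate number as a block, and libraries left out. Sequences and positions are from RefSeq, GRCm38.p6, and exon overlaps from GENCODE M21. Python 3.11.15, pandas 2.3.3 and matplotlib 3.10.9 made tables and figures.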

Additional observations from a re-analysis of the deposited data

How the results depend on the processing

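Calls among the 10 genes depended on the test more than their direction did. With 1 of them called in the main analysis, the number was 0 with upper-quartile scaling, in all 3 limma fits on FPKM, at an adjusted p under 0.01 and with the replicate block, 2 without a filter on low counts, 3 with limma-voom and 6 with DESeq2 (Hspa5, Hsp90b1, Canx, Calr, Pdia6 and Hyou1, with 5.85% of all genes called lower there), and 0 to 1 with a library left out. Over all genes, 393 were called (150 higher, 243 lower). The number was 593 without the filter, 1802 with DESeq2, 344 (201 higher, 143 lower) with log2(FPKM + 1), 4 with it unfiltered, 123 with log2(FPKM + 0.1), 32 at an adjusted p under 0.01, 13 to 1289 with a library left out and 1591 without both replicate 2 libraries; a fit with 1 mature zone library assumes that it varies like the articular zone libraries. Pdia4 alone changed sign, to 0.0785 on log2(FPKM + 1), filtered or not, 0.0799 on log2(FPKM + 0.1), 0.12 without mature zone replicate 2 (range -0.36 to 0.12 with a library left out) and 0.21 without both replicate 2 libraries. The FPKM scale moved all genes by a median of 0.19 on the log2 scale; relative to the median of all genes, the median of the 10 was -0.60 there and -0.70 in the main analysis. With the replicate number as a block 226 genes and 0 of the 10 were called, and P4hb, Kdelr3, Xbp1, Dcn and Emcn were not. Only 2 numbers are shared between zones, with correlations of deviations of 0.137 and 0.128. The deviations of 2 mature zone libraries mirror each other, so articular zone replicates 2 and 3 gave -0.137 and -0.128 with the other number. These values are therefore not separate checks of a pairing. Muscle markers were high in both replicate 2 libraries (933 and 807 CPM). The labels tie no captures to each other, and a link between them was not tested.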
